A study of Mus musculus with 6 samples.

Results

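The ribosomal protein pseudogenes are the genes whose symbol is that of a ribosomal protein of the large (Rpl) or small (Rps) subunit followed by "-ps" and, in most cases, a number. This rule, which uses names and no measured value, found 222 pseudogenes among the 39017 genes of the deposited tables, 135 named after large-subunit and 87 after small-subunit proteins. Each was set beside its parent, the ribosomal protein gene in its name. There were 54 parents, and 1 pseudogene, Rpl48-ps1, had no parent of that name in the tables and no counts.

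PolyA RNA-Seq was compared between 3 groups of 2 libraries of mouse embryonic stem cells (mESCs) of the V6.5 line, which comes from crossed C57BL/6 and 129/sv mice. The untreated and the auxin 6 h libraries are of Pol II degron cells, a clonal homozygous line whose RPB1 (the Polr2a product, largest among the Pol II subunits) carries a mini auxin-inducible degron and GFP at its C-terminus, with the auxin receptor OsTIR1 expressed from Rosa26. Both received 1 µg/ml doxycycline for 12 h, and the auxin 6 h cells also 500 µM auxin (IAA) for 6 h, which sends the tagged RPB1 to the proteasome. The third group is labelled Pol2 wild type, and for it neither auxin nor doxycycline is named. All cells were grown on irradiated mouse embryonic fibroblasts, and feeders were depleted by passages before harvest. Nothing in the labels says that replicates came from separate cultures, so p-values measure the spread between these libraries, which may be technical.

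A processed pseudogene arises when the mRNA of a gene is copied into DNA and inserted elsewhere in the genome. The copy has no introns and usually no promoter of its own, and mutations then collect in it. Ribosomal protein genes, which are highly transcribed in every dividing cell, have left many such copies in mammalian genomes, and short reads of a young copy can be nearly or wholly the same as reads of the parent mRNA. The quantities below are therefore counts that were assigned to a pseudogene. How the authors' counting treated reads that match several places, and whether it used strand, is not given in the sources used here.

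The 6 libraries held between 14094022 and 15358714 counts on genes. The 10 pluripotency markers, Pou5f1 and Nanog among them, summed to 4540 and 5100 CPM (counts scaled by library size) in untreated, 3780 and 3960 CPM in auxin 6 h and 7170 and 7140 CPM in wild-type libraries. These sums did not overlap between groups, and their part in the results of either comparison was not tested. Single markers did not all follow the sums. Pou5f1 held 10625 and 12703, 12622 and 13854, and 11743 and 11725 counts in the same order of groups. Zfp42 held 5614 and 5627, 3777 and 3908, and 4960 and 4913 counts, and Dppa5a 9814 and 12533, 11011 and 11264, and 29279 and 29291. The 11 retina markers, checked because the extraction protocol of the wild-type records names retinas, summed to between 6.19 and 8.0 CPM, with the photoreceptor genes Crx and Rcvrn at 0 in all libraries. The 10 feeder fibroblast markers summed to 163 and 157 CPM in untreated, 187 and 214 CPM in auxin 6 h and 128 and 134 CPM in wild-type libraries, and Dcn and Lum, markers of mature fibroblasts, held at most 4 counts. Polr2a mRNA, which auxin does not target, went from 6623 and 6568 counts in untreated to 10396 and 10663 counts in auxin 6 h libraries.

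Of the 222 pseudogenes, 217 were found by their identifier in GENCODE release M21 on mm10, on 20 chromosomes and with 34 on the X chromosome. The annotation gave 205 as processed pseudogenes, 6 as transcribed processed pseudogenes and 6 as protein-coding genes, and 211 had a single exon. They were 151 to 1214 bases long. Of these, 152 overlapped no other gene, 21 overlapped another gene on the same strand and 47 on the opposite strand. The 5 pseudogenes whose identifier is not in that release, Rps10-ps2 and Rpl21-ps10 among them, have no sequence here.

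The transcripts of 214 pseudogenes aligned to a transcript of the parent, with a median identity of 96.9% (range 80.0% to 100%). Of these, 12 were the same as the parent over the whole alignment, and 106 held an open reading frame as long as that of a coding transcript of the parent while 108 did not. For 119 pseudogenes no stretch of 150 bases, the read length, was shared exactly with an annotated transcript of another gene, and for 28 every such stretch was.

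Stretches of the coding sequence of 6 parents are shown with the copies on which the results turn, read from the same release. Each stretch runs 60 bases from 5′ to 3′ on the strand of the copy. In the line of the parent, capitals mark positions at which a copy shown here differs, and in the line of a copy they mark the bases that differ from the parent. Positions are counted from 1 at the A of the parent's ATG.

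Rpl7a, a large-subunit protein, is shown from position 158 to 217 with the copies of its family that were tested. Rpl7a-ps11 (chrX:166854368-166854427, + strand) differs here by A186G, and its other difference in the coding sequence is A747C. Neither changes the encoded amino acid. Rpl7a-ps5 (chr17:57839005-57839064, − strand) and Rpl7a-ps3 (chr15:36308728-36308787, − strand) have 9 and 12 substitutions in the coding sequence.
Rpl7a: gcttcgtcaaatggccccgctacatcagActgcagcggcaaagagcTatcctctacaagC
Rpl7a-ps11: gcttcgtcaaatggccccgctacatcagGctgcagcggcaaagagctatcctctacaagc
Rpl7a-ps5: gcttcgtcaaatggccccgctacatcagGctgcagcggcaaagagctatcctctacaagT
Rpl7a-ps3: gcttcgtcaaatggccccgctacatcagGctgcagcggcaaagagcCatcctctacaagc

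Rpl10, which joins the large subunit late in its assembly, is shown from position 427 to 486. The only substitution in Rpl10-ps6 (chr19:37295311-37295370, − strand) is C457T, which replaces codon 153 by a stop, so that its longest reading frame has 152 codons against 214 in the parent. Rpl10-ps3 (chr9:50344456-50344515, − strand) and Rpl10-ps1 (chr2:105554360-105554419, − strand) have 0 substitutions in the coding sequence.
Rpl10: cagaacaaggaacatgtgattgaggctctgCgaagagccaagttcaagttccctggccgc
Rpl10-ps6: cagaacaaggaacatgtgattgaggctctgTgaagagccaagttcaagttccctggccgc
Rpl10-ps3: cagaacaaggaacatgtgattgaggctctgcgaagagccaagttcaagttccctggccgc
Rpl10-ps1: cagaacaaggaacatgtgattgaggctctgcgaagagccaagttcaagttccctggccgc

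Rpl15 is shown from position 295 to 354. Rpl15-ps3 (chr9:22185868-22185927, − strand) is the same as the parent over its 615 bases, and Rpl15-ps2 (chr9:72061229-72061288, + strand) has 8 substitutions.
Rpl15: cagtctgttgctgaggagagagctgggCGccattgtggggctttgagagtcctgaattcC
Rpl15-ps3: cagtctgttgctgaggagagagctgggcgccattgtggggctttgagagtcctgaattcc
Rpl15-ps2: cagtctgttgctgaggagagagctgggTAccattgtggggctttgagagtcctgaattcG

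Rpl3, which lies close to the site of peptide bond formation, is shown from position 756 to 815. Rpl3-ps1 (chrX:13203327-13203386, + strand) and Rpl3-ps2 (chrX:74171410-74171469, + strand) share T786C, and they have 2 and 10 substitutions in the coding sequence. Both substitutions of Rpl3-ps1 are synonymous, and it keeps a reading frame of 403 codons, as in the parent.
Rpl3: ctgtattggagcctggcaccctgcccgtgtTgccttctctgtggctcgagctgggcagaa
Rpl3-ps1: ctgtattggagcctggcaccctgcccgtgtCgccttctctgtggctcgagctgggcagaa
Rpl3-ps2: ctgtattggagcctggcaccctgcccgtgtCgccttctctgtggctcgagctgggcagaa

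Rps2, a small-subunit protein, is shown from position 30 to 89. The 7 substitutions of Rps2-ps13 (chrX:52898617-52898676, + strand) are all synonymous and its reading frame has the 293 codons of the parent, whereas Rps2-ps6 (chr14:76237457-76237516, − strand) has 7 substitutions and lacks further bases of the parent.
Rps2: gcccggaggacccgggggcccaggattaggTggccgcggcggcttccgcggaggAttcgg
Rps2-ps13: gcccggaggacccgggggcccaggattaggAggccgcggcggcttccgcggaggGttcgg
Rps2-ps6: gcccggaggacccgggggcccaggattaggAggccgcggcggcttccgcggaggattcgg

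Rps19, a small-subunit protein whose gene is mutated in many cases of Diamond-Blackfan anaemia, is shown from position 339 to 398. All 5 substitutions of Rps19-ps6 (chr12:110898452-110898511, + strand) are synonymous, and Rps19-ps2 (chr14:52903131-52903190, + strand) has 8.
Rps19: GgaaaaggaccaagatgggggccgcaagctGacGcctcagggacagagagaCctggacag
Rps19-ps6: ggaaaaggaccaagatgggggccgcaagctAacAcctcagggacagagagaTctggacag
Rps19-ps2: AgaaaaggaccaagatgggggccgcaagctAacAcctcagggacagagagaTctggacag

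A few near-identical copies held most of the counts assigned to pseudogenes. Over the 6 libraries, 72 of the 222 pseudogenes held no count, 92 held at least 1 count in every library, 70 had a mean of at least 10 counts and 11 a mean of at least 1000. The 5 pseudogenes with the most counts held 53.1% and the top 10 held 72.1% of the 307646 counts of the whole set. The 12 copies that are the same as the parent and the 28 copies with 1 to 3 differences, gaps included, held 25.2% and 51.3% of these counts, and every one of them was counted. In contrast, 43 of the 86 copies with over 20 differences held no count, and all 86 together held 0.98% of the counts. The median of the mean count was 679 for copies without a difference, 149 for 1 to 3 differences, 2.67 for 4 to 10, 0.833 for 11 to 20 and 0.0833 for over 20. Across the 214 aligned pseudogenes the mean count was lower with more differences (Spearman's rho = -0.66), and its rho with the mean count of the parent was 0.09. These pseudogenes share parents and libraries, and these values are descriptions without a test.

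**Figure D1:**
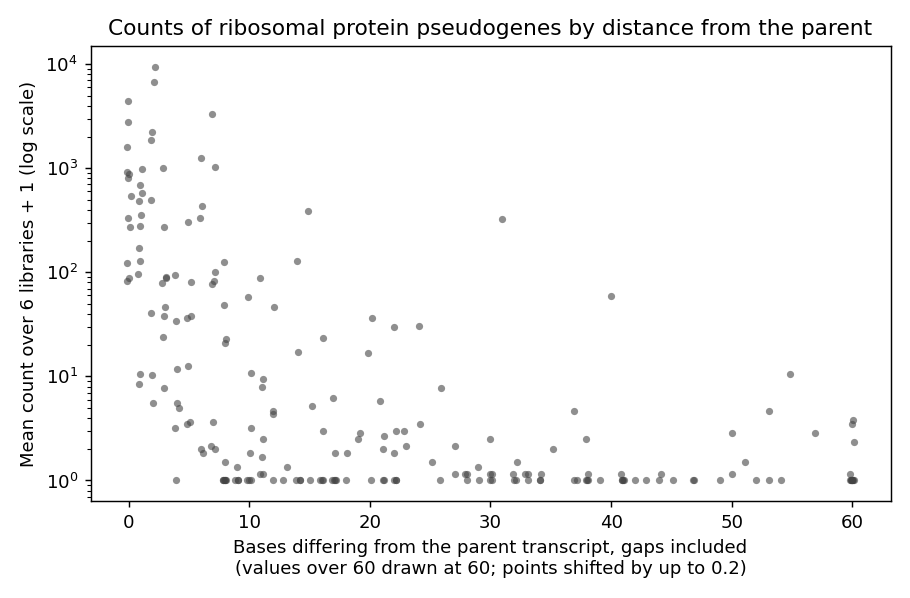
Mean count over the 6 libraries plus 1, on a log scale, of each of the 214 aligned pseudogenes against the number of bases by which its transcript differs from the parent. Pseudogenes with 0 to 3 differences fill the top of the plot, and most of those with over 20 differences lie on or near the line of no counts.

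The reading frame followed the same order. Of the 70 pseudogenes with a mean of at least 10 counts, 47 kept a reading frame of the parent's length and 21 did not, and of the 152 below that mean 59 did and 87 did not. The median identity to the parent was 99.2% in the former and 95% in the latter.

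The most-counted member was Rpl3-ps1, which held 8551 and 10879 counts in untreated, 10360 and 10305 counts in auxin 6 h and 8289 and 8606 counts in wild-type libraries. The groups overlapped, and for each 100 counts of Rpl3 it held between 29.1 and 44.0. Rpl34-ps1 (chromosome 6, 71124610 to 71124963) held 6752 and 8506 counts in untreated, 8271 and 8005 in auxin 6 h and 4375 and 4770 in wild-type libraries. It was the 1 member that held more counts than its parent, between 105 and 132 for each 100 counts of Rpl34. Per length it stood higher still, at 1350 and 1640 RPKM (counts scaled by transcript length in kilobases and by library size) in untreated libraries against 732 and 856 RPKM for Rpl34. Rpl34-ps1 differs from its parent by 2 bases and keeps the parent's frame of 117 codons.

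Rps12-ps3, annotated as a protein-coding gene and the same as Rps12 over its 494 bases, held 4056 and 4687 counts in untreated, 5342 and 4847 in auxin 6 h and 3820 and 3800 in wild-type libraries. Rpl14-ps1, which differs from its parent by 7 bases, held 2832 and 3115, 3629 and 3442, and 3448 and 3365 counts in the same order of groups. Rps10-ps2 held 3290 and 3709, 3963 and 4000, and 2093 and 2198 counts. Of the 221 pseudogenes with a parent, 11 held on average at least 10 counts for each 100 of the parent, 25 held 1 to 10, 114 held fewer than 1 and 71 held none.

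As a whole the pseudogenes took 0.302% and 0.353% of the counts of the untreated libraries, 0.375% and 0.347% in auxin 6 h and 0.349% and 0.348% in wild type, so the groups overlapped. The 95% exact binomial interval, which covers counting error only, ran from 0.299% to 0.304% in the lowest library and from 0.372% to 0.378% in the highest. The parents together took 6.71% and 7.42% in untreated, 7.01% and 7.11% in auxin 6 h and 4.82% and 4.76% in wild type. For each 100 counts of the parents, the pseudogenes thus held 4.50 and 4.75 counts in untreated, 5.35 and 4.89 in auxin 6 h and 7.23 and 7.31 in wild type. On this scale both wild-type and both auxin 6 h libraries lay above both untreated ones.

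The first comparison asked whether 6 h of Pol II degradation changed the steady-state counts. After auxin, 9 pseudogenes rose, from 1.64-fold to 2.43-fold, and none fell. Rpl36a-ps3, Rpl30-ps8 and Rps24-ps3 rose by more than 1 on the log2 scale, where 3.52% of all genes differed by more than 1, and Rpl3-ps2, Rps19-ps6, Rpl39-ps, Rpl7a-ps11, Rps27a-ps2 and Rpl19-ps11 by 0.71 to 0.91. None of their parents, taken by name, was called. Tests were made with edgeR's quasi-likelihood method on the genes that passed a filter on low counts, here 71 of the 222 pseudogenes, with Benjamini-Hochberg adjustment over all 16128 genes tested and calls at an adjusted p under 0.05. Of all genes tested, 4.20% were called, 2.56% higher and 1.64% lower.

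Among the large-subunit copies, Rpl36a-ps3 (chromosome 6, 136488807 to 136489127, with no overlapping gene), which differs from Rpl36a by 40 bases and shares 27.3% of its 150-base stretches with Rpl36al, held 33 and 44 counts in untreated and 125 and 76 counts in auxin 6 h libraries. Its log2 fold change was 1.28 (SE 0.27, edgeR adjusted p = 0.0199). It shares 0.0% of its 150-base stretches with Rpl36a, which is its parent by name only. Values that set it beside Rpl36a may therefore not compare it with the gene it was copied from. Rpl30-ps8 went from 16 and 14 to 42 and 35 counts, a log2 fold change of 1.25 (SE 0.32, edgeR adjusted p = 0.0476). The auxin 6 h libraries lay above the untreated ones for both. Rpl3-ps2, which like Rpl3-ps1 is X-linked and carries T786C, went from 61 and 60 to 131 and 114 counts, a log2 fold change of 0.91 (SE 0.19, edgeR adjusted p = 0.0186). Rpl39-ps (chromosome 15, 102635038 to 102635188), a 151-base copy of the gene for a protein of the exit tunnel, went from 139 and 145 to 341 and 200 counts, a log2 fold change of 0.82 (SE 0.20, edgeR adjusted p = 0.0379). In both the lower auxin 6 h library still exceeded the higher untreated one. For Rpl39-ps and Rpl36a-ps3 the auxin replicates differed from each other by more than the lower one did from the higher untreated library.

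Rpl7a-ps11 went from 98 and 120 to 239 and 157 counts, a log2 fold change of 0.76 (SE 0.19, edgeR adjusted p = 0.048). Rpl19-ps11 went from 245 and 331 to 563 and 450 counts, a log2 fold change of 0.71 (SE 0.13, edgeR adjusted p = 0.0124). Its only exon overlaps Gm27288 on the same strand, so its counts are uncertain. The small-subunit copies moved alike. Rps27a-ps2 (chromosome 9, 83409660 to 83410126, opposite Lca5), a copy of a gene whose product is made as a fusion with ubiquitin, went from 260 and 363 to 649 and 482 counts, a log2 fold change of 0.76 (SE 0.15, edgeR adjusted p = 0.0143). Rps19-ps6, which overlaps Tecpr2 on the same strand, went from 134 and 159 to 348 and 228 counts, a log2 fold change of 0.87 (SE 0.18, edgeR adjusted p = 0.0179). Rps24-ps3 went from 18 and 22 to 53 and 42 counts, a log2 fold change of 1.14 (SE 0.29, edgeR adjusted p = 0.0476). For each of the 9, both auxin 6 h libraries lay above both untreated ones. The auxin replicates of Rpl7a-ps11, Rps19-ps6 and Rps27a-ps2 also differed from each other by more than the lower one did from the higher untreated library.

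**Figure D2:**
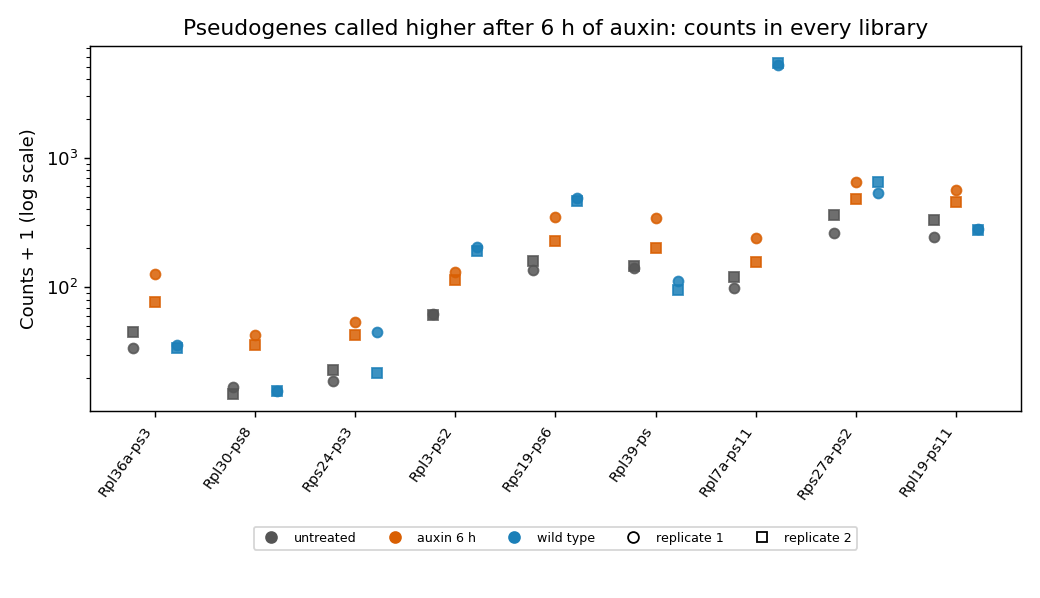
Counts plus 1, on a log scale, of the 9 pseudogenes called higher after auxin, in each of the 6 libraries, with colours for groups and circles and squares for replicates 1 and 2. The auxin 6 h points lie above the untreated points for each gene, with replicate 1 above replicate 2, and Rpl7a-ps11 stands at 5131 and 5399 counts in wild type.

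Over all 71 pseudogenes tested, the 9 called ones included, the fitted log2 fold change was above 0 for 60 and below 0 for 11, with a median of 0.24 and a range from -0.55 to 1.28, and the median over all genes was 0.00. The auxin 6 h libraries lay wholly above the untreated ones for 41 pseudogenes and wholly below for 0, beside 25.0% and 24.8% of all genes. At an unadjusted p under 0.05 edgeR counted 30 pseudogenes as higher and 0 as lower, and DESeq2 counted 22 and 0. Genes with few counts leaned upward as a whole. Among the 32 tested pseudogenes with a mean under 100 counts 4 were called higher and the median was 0.34, where of all 5129 genes of that range 236 were called higher and 7 lower and the median was 0.13. Among the 28 with a mean of 100 to 1000 counts 5 were called higher and the median was 0.33, where of all 7404 genes 146 were called higher and 131 lower and the median was -0.02. Among the 11 with at least 1000 counts 0 were called and the median was 0.15, where it was -0.02 for all 3595 genes. Of the 5 most-counted members, the log2 fold changes lay between -0.01 and 0.15.

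The parents did not share this lean. Of 54 tested, 0 were called higher, with 0 also at an unadjusted p under 0.05 and by DESeq2, and 1 was called lower, Rpl7l1, at 2363 and 2480 counts in untreated and 2039 and 2076 in auxin 6 h libraries. Their median log2 fold change was -0.04. Of the 90 cytosolic ribosomal protein genes tested, 0 were called higher and 1 lower, with a median of -0.02. Of the other 665 genes named as pseudogenes, 69 were tested, 2 were called higher and 0 lower, and the median was 0.10. For each 100 counts of the parent, the auxin 6 h libraries lay wholly above the untreated ones for 46 of the 71 pseudogenes and wholly below for 0. No such ratio was formed for all genes, and on the pseudogenes' own counts these numbers were 41 and 0, beside 25.0% and 24.8% of all genes.

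Single libraries decided how many pseudogenes were called after auxin. Replicate 1 of auxin 6 h held a larger share of counts than replicate 2 for 61 of 70 pseudogenes with at least 10 counts in both, and replicate 2 of the untreated cells exceeded replicate 1 for 54 of 67. Without auxin 6 h replicate 1, 0 pseudogenes were called (9 at an unadjusted p under 0.05) although all 9 kept their sign, and the median fell to 0.13. The log2 fold change then was 0.41 for Rpl39-ps, 0.44 for Rpl7a-ps11, 0.55 for Rps19-ps6 and 0.89 for Rpl36a-ps3, against 0.82, 0.76, 0.87 and 1.28 with all libraries. Without auxin 6 h replicate 2, 11 were called, and Rpl3-ps2, Rpl30-ps8 and Rps24-ps3 lost the call at log2 fold changes of 0.99, 1.36 and 1.28. Without untreated replicate 1, 15 were called higher and 4 lower, and without untreated replicate 2, 25 were called higher and Rpl30-ps8 was not. A library left alone in its group was assumed to vary as the other group does. DESeq2 called 5 of the 9, all but Rpl3-ps2, Rpl30-ps8, Rpl7a-ps11 and Rps24-ps3, whose log2 fold changes there were 0.91, 1.26, 0.76 and 1.14. With no filter on low counts 0 of 143 tested were called by edgeR (31 at an unadjusted p under 0.05), and the log2 fold changes of the 9 ran from 0.69 to 1.25. The sum of the feeder markers was also higher in both auxin 6 h libraries, at 187 and 214 against 163 and 157 CPM. Most of its counts were of Col1a1 (941 and 938 in untreated, 1166 and 1380 in auxin 6 h) and Col1a2 (993 and 951, 1275 and 1413). Not every marker rose, as Thy1 held 171 and 210 counts in untreated and 181 and 180 in auxin 6 h libraries. The part of these markers in the result was not tested. Fewer cells of a type and less RNA per cell cannot be told apart in these bulk libraries.

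The second comparison set wild-type cells beside the same untreated libraries, so that a deviation of those libraries enters both. In wild type 23 pseudogenes were higher and 20 lower, and the extremes were far apart. Rpl7a-ps11 was 48.5-fold, Rpl10-ps6 25.1-fold and Rpl15-ps3 9.38-fold higher, while Rpl7a-ps3 and Rps2-ps6 were 4.35-fold and 4.29-fold lower. Of the 222 pseudogenes 73 were tested, among 15778 genes. Calls were common, with 29.9% of all genes higher and 30.7% lower, so the share of pseudogenes called, 58.9%, lay close to the 60.6% of all genes. Wild-type counts stand in a separate table, so cell line, culture and library preparation cannot be told apart.

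The sizes of the differences were spread more widely. The median absolute log2 fold change was 0.74 for the pseudogenes, 0.49 for the parents and 0.43 for all genes, and 39.7% of the pseudogenes tested, 1.85% of the parents and 18.7% of all genes differed by more than 1. Among the other named pseudogenes, of which 22 were called higher and 13 lower of 70 tested, these values were 0.62 and 32.9%.

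Rpl7a-ps11 had the largest rise. It held 98 and 120 counts in untreated, 239 and 157 in auxin 6 h and 5131 and 5399 in wild-type libraries, a log2 fold change of 5.60 between wild type and untreated (SE 0.09, edgeR adjusted p = 2e-11). For each 100 counts of Rpl7a it rose from 0.948 and 1.02 to 60.6 and 64.7, and per length it reached 433 and 453 RPKM in wild type against 627 and 613 RPKM for Rpl7a. All of its 150-base stretches are shared with other annotated genes, 68.6% of them with Rpl7a, so its counts are uncertain. Rpl7a itself was lower in wild type, with a log2 fold change of -0.38 (edgeR adjusted p = 0.000494). When the counts of each parent and its pseudogenes were summed before the fit, the value for Rpl7a turned to 0.36 (edgeR adjusted p = 0.000736).

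Rpl10-ps6, the copy with the stop at codon 153 and an overlap with Ide on the same strand, held 30 and 32 counts in untreated, 33 and 36 in auxin 6 h and 806 and 746 in wild-type libraries, a log2 fold change of 4.65 (SE 0.13, edgeR adjusted p = 3.78e-10). Rpl15-ps3, the copy without a difference from Rpl15, held 80 and 92, 133 and 99, and 817 and 788 counts in the same order, a log2 fold change of 3.23 (SE 0.10, edgeR adjusted p = 1.05e-09). Every one of its 150-base stretches also lies in Rpl15, whose own log2 fold change was -0.80. Rpl17-ps5 (chromosome 5, 22612628 to 22613182) held 145 and 168, 237 and 199, and 1192 and 1001 counts, a log2 fold change of 2.82 (SE 0.11, edgeR adjusted p = 5.29e-09), while Rpl17 changed by -0.85. Of the 150-base stretches of Rpl10-ps6 and Rpl17-ps5, 70.6% and 86.9% are shared with other annotated genes, so these counts are also uncertain.

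Rps2-ps13 rose from 310 and 437 counts in untreated to 2311 and 2254 in wild type, a log2 fold change of 2.62 (SE 0.11, edgeR adjusted p = 1.17e-08). Rpl7a-ps5 rose from 170 and 147 to 824 and 818 counts (log2 fold change 2.38), and Rps13-ps4, which overlaps Taf1c on the same strand, from 37 and 51 to 167 and 190 counts (log2 fold change 2.03). Of the read-length stretches of Rps2-ps13, Rpl7a-ps5 and Rps13-ps4, 68.1%, 33.3% and 51.5% are shared with other annotated genes, so these counts are uncertain. Rps2-ps13 shares 68.1% of its stretches with Rps2-ps10. Rpl21-ps10 was scarce, with 5 and 2 counts in untreated and 26 and 30 in wild-type libraries. Its log2 fold change of 2.97 had a larger SE of 0.48. This copy passed the filter only through its wild-type counts and was not tested at a minimum of 10 counts in every library. The rule that named these 8 took only copies whose groups did not overlap. In none but Rpl7a-ps11 did the auxin comparison pass the test, for which Rpl21-ps10 had too few counts.

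Of the largest falls, those of Rpl18-ps1 and Rps19-ps2 were of scarce copies. Rpl18-ps1, which overlaps Ctla4 on the same strand and did not align to Rpl18, held 20 and 10 counts in untreated and 0 and 1 in wild type, a ratio of the summed shares of 31.0 with a 95% counting interval from 5.15 to 1260 (edgeR adjusted p = 0.000888). Rps19-ps2 held 20 and 16 counts against 3 and 3, a ratio of 6.20 with an interval from 2.59 to 18 (edgeR adjusted p = 0.00115), and all of its 150-base stretches are shared with Rps19-ps1, which held 0 counts in every library. These ratios rest on few counts and are known only to within their intervals. Both copies passed the filter only through their untreated counts, and neither was tested at a minimum of 10 counts in every library.

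Rpl7a-ps3 fell from 54 and 61 to 11 and 15 counts, by 2.12 on the log2 scale (SE 0.30, edgeR adjusted p = 0.000102). Rps2-ps6 fell from 345 and 571 to 114 and 98 counts, by 2.1 (SE 0.21, edgeR adjusted p = 6.6e-06). Rpl10-ps3, annotated as protein coding, went from 86 and 109 to 35 and 24 counts, Rpl10a-ps1, which is the same as Rpl10a, from 758 and 1006 to 364 and 329, and Rpl30-ps10 from 81 and 72 to 27 and 38. The log2 fold changes of these last 3 were -1.71, -1.34 and -1.22. By the same rule the groups did not overlap for any of these, and over all pseudogenes tested wild type lay wholly above untreated for 31 and wholly below for 24, beside 40.0% and 41.0% of all genes.

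**Figure D3:**
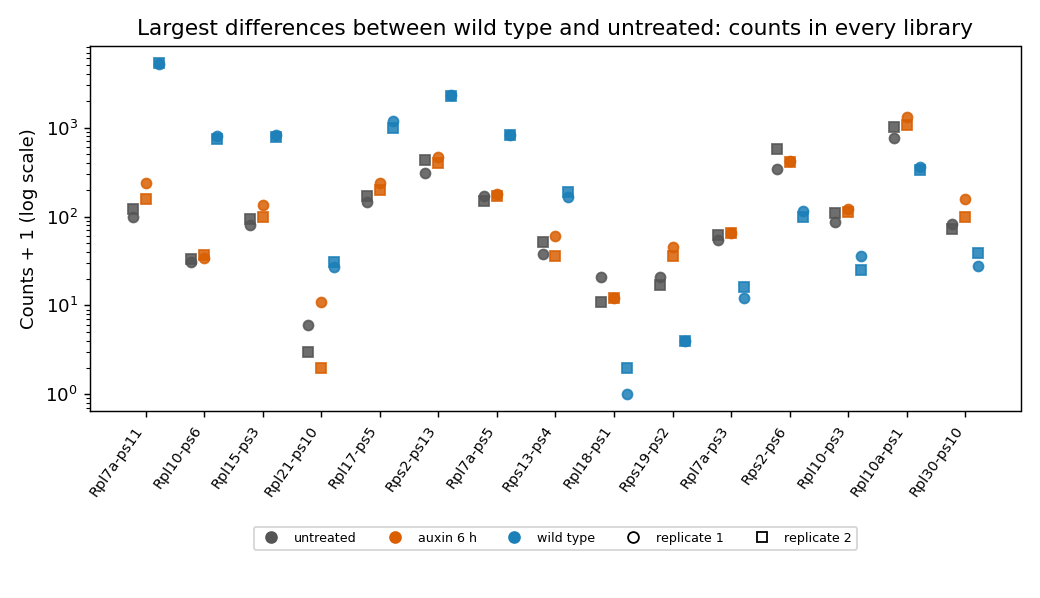
Counts plus 1, on a log scale, of the 8 largest rises (left) and 7 of the 8 largest falls (right) between wild-type and untreated cells, in each library. Wild-type points stand apart from the untreated points in every column, which the rule that chose these genes required, and the auxin 6 h points lie near the untreated ones for most genes, as for Rpl10-ps6 at 33 and 36 counts.

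In some families, copies of a single parent were called in opposite directions. Calls in either direction were common among all genes, at 29.9% higher and 30.7% lower, and nothing particular to the families is read from these counts. Of the 20 parents with at least 2 tested copies, 6 had copies called higher and copies called lower in wild type, namely Rpl7a, Rpl10, Rpl9, Rps2, Rps19 and Rps6. In the Rpl7a family, Rpl7a-ps11 and Rpl7a-ps5 rose and Rpl7a-ps3 fell. In the Rps2 family, Rps2-ps13 and Rps2-ps10 rose, the latter from 198 and 408 to 755 and 600 counts, while Rps2-ps6 fell. Rps2-ps13 shares 68.1% of its read-length stretches with Rps2-ps10, so their rises may not be independent. In the Rps19 family, Rps19-ps6 rose from 134 and 159 to 483 and 463 counts and Rps19-ps3 from 9 and 9 to 23 and 26, while Rps19-ps2 fell. In the Rpl10 family, Rpl10-ps6 rose and Rpl10-ps3 fell, and Rpl10-ps1, also without a substitution in the coding sequence, held 51 and 72 counts in untreated and 69 and 56 in wild type (log2 fold change 0.03, edgeR adjusted p = 0.911). Rpl9-ps6, annotated as protein coding, rose from 438 and 459 to 1034 and 1061 counts, and Rpl9-ps7 fell from 261 and 311 to 186 and 228. Rps6-ps3 rose from 6 and 3 to 12 and 12 counts, and Rps6-ps4, the same as Rps6, fell from 774 and 993 to 621 and 620. Some of these calls depended on the setting. Rps6-ps3 lost its call with DESeq2, with no filter and without untreated replicate 2 or wild-type replicate 1 or 2, and was not tested at a minimum of 10 counts in every library, and Rpl9-ps7 lost its call with no filter and without untreated replicate 2 or wild-type replicate 1. Rps19-ps3 lost its call with DESeq2. Neither it nor Rps19-ps2, the only Rps19 copy called lower, was tested at a minimum of 10 counts in every library. At that setting the Rps19 family had no copy called lower and the Rps6 family no copy called higher. Rps6-ps3 and Rps19-ps3 passed the main filter only through their wild-type counts. The parents of all 6 families were lower in wild type.

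**Figure D4:**
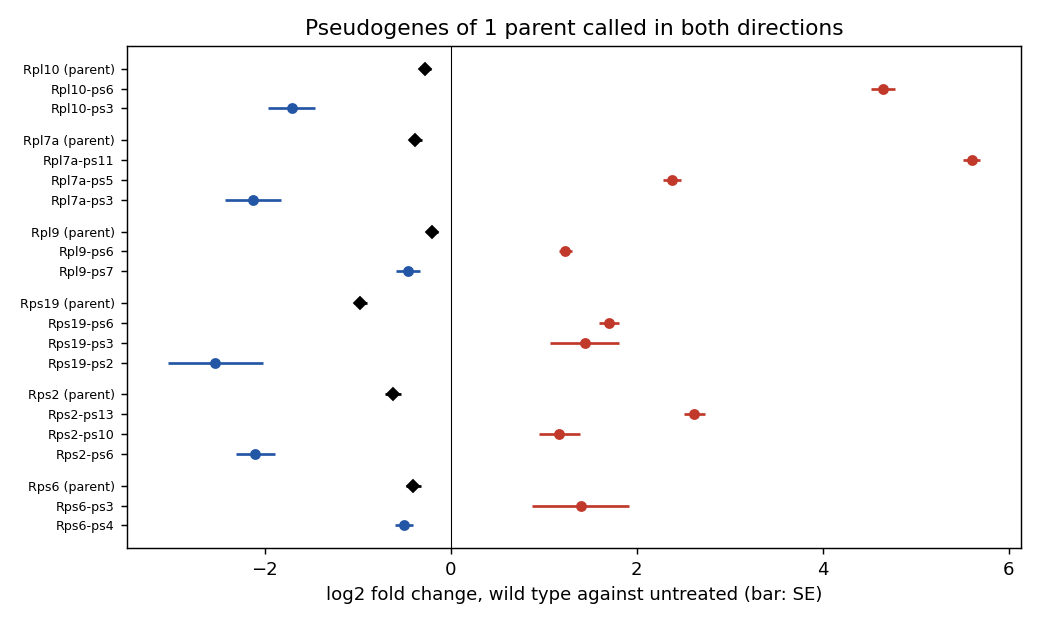
The log2 fold change between wild-type and untreated cells, with its SE as a bar, of the pseudogenes in the 6 families with calls in both directions (circles) and of their parents (diamonds). The parents lie between -1 and 0, and their copies reach from -2.53 for Rps19-ps2 to 5.60 for Rpl7a-ps11.

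Against this spread, the parents moved together. Of 54 parents 44 were lower and 5 higher in wild type, with a median log2 fold change of -0.49, and the fitted value was below 0 for 48. The 5 parents called higher were Rpl3, Rpl35a, Rpl36a, Rpl38 and Rpl7l1. Without wild-type replicate 1 the number of parents called higher was 3, and without replicate 2 it was 2. Of the 90 cytosolic ribosomal protein genes tested, 64 were lower and 14 higher, with a median of -0.41. The pseudogenes had a median of 0.08. Of the 60 tested pseudogenes whose parent was lower, 19 were higher, 18 lower and 23 not called. Across the 73 tested pseudogenes the log2 fold change of the copy had a Spearman's rho of 0.02 with that of the parent, a description without a test, since several copies share a parent. For each 100 counts of the parent, wild-type libraries lay wholly above the untreated ones for 47 pseudogenes and wholly below for 18. On the pseudogenes' own counts these numbers were 31 and 24, beside 40.0% and 41.0% of all genes. The ratios also carry the change of the parents, and no such ratio was formed for all genes.

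**Figure D5:**
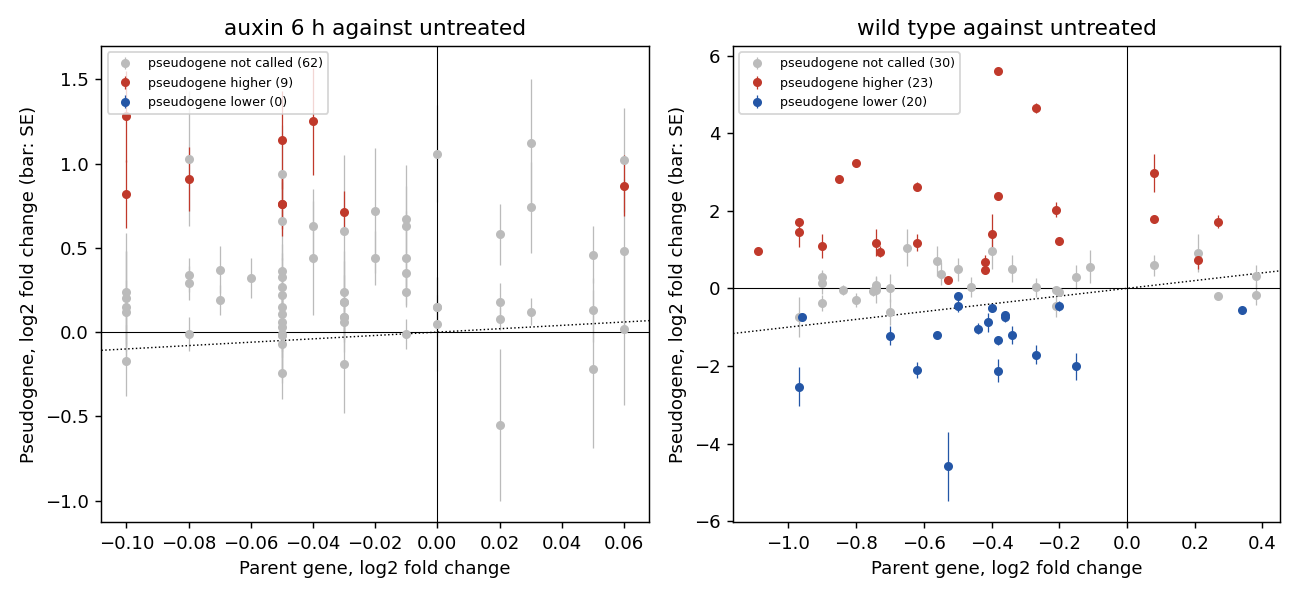
The log2 fold change of each tested pseudogene, with its SE as a bar, against that of its parent, for auxin 6 h (left, 71 pseudogenes) and wild type (right, 73 pseudogenes), with the dotted line where both are equal and axes that differ between the panels. After auxin the parents stay near 0 and most pseudogenes lie above 0, and in wild type the parents lie mostly below 0 while the pseudogenes spread to both sides.

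Of the 5 most-counted copies 4 were called in wild type, each by less than 1 on the log2 scale. Rpl34-ps1 was lower by 0.73 on the log2 scale and its parent Rpl34 by 0.96. Rps10-ps2 changed by -0.69 and Rps10 by -0.36, and Rps16-ps2, the same as Rps16, went from 3005 and 3422 to 1444 and 1303 counts (log2 fold change -1.21, edgeR adjusted p = 2.02e-07). Rps12-ps3 changed by -0.19 (edgeR adjusted p = 0.0349), a call lost with DESeq2, with no filter, without untreated replicate 2 (-0.09) and without wild-type replicate 1 (-0.20) or 2 (-0.18). Rpl14-ps1 was higher by 0.21 (edgeR adjusted p = 0.0138) where Rpl14 changed by -0.53, and its call was lost without wild-type replicate 1 or 2, at 0.18 and 0.23. The fifth, Rpl3-ps1, had a log2 fold change of -0.19 (edgeR adjusted p = 0.0881), and without untreated replicate 1 it was called at -0.34 (edgeR adjusted p = 3.36e-07). Rpl21-ps15, with 3 differences from Rpl21, rose from 480 and 598 to 1827 and 1877 counts, and Rpl23a-ps3, with 1 difference, from 611 and 773 to 1319 and 1363. These 2 pseudogenes and Rps16-ps2 were named after their values were seen, for their share of counts.

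By position, 7 of the 34 X-linked pseudogenes were tested, of which 3 were called higher and 0 lower after auxin with a median log2 fold change of 0.63, and 4 were called higher and 1 lower in wild type with a median of 1.72. On the other chromosomes, 6 of 63 tested were higher and 0 lower after auxin with a median of 0.24, and 18 of 64 tested were higher and 18 lower in wild type with a median of 0.04. The difference between these classes was not tested. Among the 11 tested pseudogenes without any 150-base stretch shared with another gene, 3 were higher and 4 lower in wild type with a median absolute log2 fold change of 0.67, and among the 16 whose stretches are all shared, 4 were higher and 7 lower with 0.66.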

How the data were processed

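PolyA RNA-Seq reads (paired, 150 bases) had been aligned by the authors to mm10 with HISAT2 2.1.0 and counted per GENCODE gene with Salmon and htseq-count. The deposited values used here are whole-number counts, not normalized. The deposited DESeq2 columns (scaled means, fold changes, p-values) were not used, nor were 2 columns of counts that matched no sample. Both tables were joined by gene identifier.

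Each comparison was fitted on its own 4 libraries with edgeR 4.0.16 (R 4.3.3), with filterByExpr at a minimum count of 10, TMM scaling, glmQLFit and glmQLFTest, a prior count of 0.125 and Benjamini-Hochberg adjustment over all genes tested. The SE is the absolute log2 fold change divided by the square root of the F statistic. A pair of groups was said not to overlap where all CPM values of one, on the TMM scale, lay above those of the other. The scripts were tested on simulated counts. Total counts per library of 14094022 to 15358714 leave weakly counted genes imprecise, and intervals cover counting error only.

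Sequences and positions came from GENCODE M21, and pseudogene transcripts were aligned to transcripts of the parent with blastn 2.17.0. The parent's length and reading frame are those of the coding transcript with its most common coding length. The copies named in the text are those called after auxin, the 8 largest rises and 8 largest falls among called pseudogenes whose groups did not overlap in the wild-type comparison, and the 5 with the most counts, each with its parent, except 1 of the falls, which is not reported here. The members and lists were chosen with earlier results of these data known. Alternatives were DESeq2 1.42.0, other scalings and filters, a joint fit, a replicate block, each library left out, and parent and pseudogene counts summed.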

Additional observations from a re-analysis of the deposited data

How the results depend on the processing

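In the auxin comparison, the 9 pseudogenes called higher became 5 with DESeq2, 0 with no filter on low counts (31 at an unadjusted p under 0.05) and 24 with the replicate block. With each library left out in turn this count ran from 0 to 25 and the count of pseudogenes called lower from 0 to 4. The parent genes called higher ran from 0 to 6 and those called lower from 0 to 14, and with no filter 0 parents were called lower. In the wild-type comparison the pseudogene calls stayed within 1.5 times the reported counts under every alternative that tested pseudogenes (not where their counts were added to the parent), and the parents called higher ran from 2 to 7 with a library left out. The share of counts on the pseudogenes in wild type relative to untreated was 1.06, and 1.57 with the parents' counts as denominator. The cause of these changes was not tested.

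The labels do not say whether same-numbered replicates share more than a number. The correlation of their deviations from the group means was 0.122 in the auxin and -0.057 in the wild-type comparison. With the block, the wild-type comparison had 25 pseudogenes higher and 21 lower, and 5 parents higher and 44 lower.

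Directions turned mostly for genes near 0 after auxin. With each library left out, the log2 fold changes ran from -0.13 to 0.04 for Rpl14, -0.11 to 0.05 for Rpl19, -0.15 to 0.01 for Rpl3, -0.17 to 0.16 for Rpl3-ps1, -0.12 to 0.05 for Rpl30, -0.13 to 0.12 for Rpl34, -0.15 to 0.16 for Rpl34-ps1, -0.13 to 0.03 for Rpl7a, -0.14 to 0.04 for Rps24, -0.15 to 0.05 for Rps27a, -0.06 to 0.10 for Rps10 and -0.02 to 0.14 for Rps19. On library totals they became 0.00 for Rpl3-ps1, 0.00 for Rpl34 and 0.01 for Rpl34-ps1. With no filter Rps10 was at 0.00, just below 0. In wild type, Rpl21 ran from -0.01 to 0.18, and Rpl7a became 0.36 with parent and pseudogene counts summed, which adds the counts of Rpl7a-ps11 among others. Scaling by library totals shifted the median of all genes to -0.07 in wild type. Few counts limit what can be seen for the 151 pseudogenes that were not tested after auxin.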

Other observations

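Single pseudogenes differed between the replicates of a group. Rpl35a-ps3 held 45 and 219 counts in the wild-type libraries, a log2 difference of 2.27 after division by the library totals, against 69 and 72 counts in untreated and 85 and 81 in auxin 6 h libraries. Rps12-ps9 held 83 and 34 counts in the auxin 6 h libraries, a log2 difference of -1.27, against 28 and 22 in untreated. Among pseudogenes with at least 10 counts in both replicates, 2 of 67 in untreated, 2 of 70 in auxin 6 h and 2 of 69 in wild type differed by more than 1 on the log2 scale between replicates.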
